A study of Homo sapiens with 18 samples.

Results

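The long arm of chromosome 8 carried peaks of the DNA topoisomerases TOP2A and TOP2B at more than the genome-wide density in KG-1 cells, an established human myeloid leukaemia line. Members were all MACS peaks, and separately all SISSRs sites, whose midpoint fell in the hg19 window chr8:47000000-146364022. The window was selected on its peak density, which was known to be high, so its level is given as a description without a test. It held 109568 of 1413022 MACS peaks and 138254 of 1483019 SISSRs sites over 12 libraries. The short-arm window chr8:1-43000000, with 24310 MACS peaks, served as the reference. The name long arm did not match the position of the change. With vehicle or etoposide (8 libraries), the high density began on the short arm, near 36.2 Mb. It lay on both sides of the centromere. Only 3 bins between the windows held a peak, so the density through the centromere was not measured. In untreated cells the level from 36.2 Mb to the end of the short-arm window depended on the caller. MACS peaks there stood at 1.11 (TOP2A) and 1.19 (TOP2B) times the library mean, and SISSRs sites at 5.51 and 13.8.

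Formaldehyde at 1% was applied to all cells for 10 min. Chromatin was precipitated with an antibody to TOP2A (5 µg) or to TOP2B (4 µg) and sequenced as 50 bp paired-end reads. In the first experiment, each antibody was used on cells given methanol as vehicle for 1 h and on cells given 100 µM etoposide for 1 h, with 2 libraries per group and 8 in all. In the second, each antibody was used on untreated cells and on cells given 0.5 µM mitoxantrone for 1 h, with 1 library per group and 4 in all. Per the labels, 3 immunoprecipitations were pooled for each antibody, and the TOP2A and TOP2B libraries of 1 treatment and replicate number came from the same chromatin. The labels do not say that replicates were separate cultures, so a p-value here reflects how far these particular libraries scatter, and that scatter may be technical. The model is 1 cell line, and the 6 input libraries were not analysed here.

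Type II topoisomerases cut both strands of a DNA duplex, pass another duplex through the gap and close it again, which removes knots, tangles and supercoils. TOP2A is most abundant in dividing cells and acts on chromosomes before they separate, while TOP2B is also present in cells that do not divide and acts at transcribed genes. Etoposide and mitoxantrone hold the enzyme on the cut DNA. MYC, a transcription factor gene that drives growth, lies towards the far end of the long arm, and gain of chromosome 8 is a common change in myeloid leukaemia. The number of DNA copies was not measured in the files used here, so a higher density of peaks and a higher number of copies of the segment cannot be told apart.

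Lists differed in size and in kind. The 8 lists of the etoposide experiment held 36528 to 297394 MACS peaks, most of them at the smallest width in their list, which lay between 98 and 128 bp. The etoposide libraries of replicate 1 stood apart within that experiment, with 36528 peaks for TOP2A and 70459 for TOP2B, and with 2.38 and 1.75 SISSRs sites per MACS peak in the long-arm window against 0.997 to 1.09 in the other 6. The 4 lists of the mitoxantrone experiment held 702 to 109739 peaks, with median widths in the long-arm window of 661 to 2716.5 bp. Values are therefore given by experiment, and results that use the etoposide libraries of replicate 1 were also computed without them.

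Density was counted as peaks per 500 kb bin over 5738 bins of chromosomes 1 to 22 and X, and a level is that number divided by the library's mean bin. The long-arm window covers 199 of these bins, and in the 8 libraries a bin there held 14.5 to 121 peaks on average. The TOP2A vehicle libraries had a level of 2.31 in replicate 1 and 2.32 in replicate 2. The TOP2B vehicle libraries had levels of 2.34 and 2.36. The 4 libraries without etoposide thus lay within a narrow range, although their lists differed in length. The TOP2A etoposide libraries had levels of 2.31 and 2.34, and the TOP2B etoposide libraries had levels of 2.45 and 2.37. Over the 8 libraries the level was 2.35 ± 0.0454 (SD, n = 8), against 1.18 ± 0.0235 in the short-arm window, and the ratio of the windows was 1.99 ± 0.0375. Within a library, 95% exact Poisson intervals, which cover counting error only, ran from 2.23 to 2.40 in the shortest list (TOP2A etoposide, replicate 1) and from 2.33 to 2.39 in the longest (TOP2B vehicle, replicate 2).

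The raised level was spread over the whole window and not carried by a few bins. In 7 of the 8 libraries all 199 bins of the window exceeded the library mean, and in TOP2A etoposide replicate 1, the shortest list, 195 did. A level above 1.5 in every one of the 8 libraries was found in 186 bins of the genome, of which 164 lay in the long-arm window, 13 in the short-arm window and 8 among the 5450 bins of other chromosomes. The remaining bin lay between the windows. Above a level of 2 in all 8 libraries there were 69 bins, 60 of them in the long-arm window and 2 on other chromosomes. Bins of the window also varied less among themselves than bins elsewhere. The coefficient of variation over the window was 0.139 in TOP2A vehicle replicate 1 and 0.120 in replicate 2, against 0.327 and 0.284 over chromosomes other than 8. Bins of the window also held more peaks each, and the variance of their counts was 1.19 to 1.90 times the mean in the 8 libraries. The other chromosomes differed in mean level, from 0.507 on chromosome X to 1.13 on chromosome 22. The part of this in their larger coefficient of variation was not tested.

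The bins of the window that were highest by the mean of log2 levels over the 8 libraries lay at the far end of the arm. The bin chr8:145500001-146000000 ranged from 2.69 to 3.35 with a median of 3.19. The bin chr8:142000001-142500000 ranged from 2.52 to 4.10 with a median of 2.93. The bin chr8:144500001-145000000 ranged from 2.69 to 3.56 with a median of 3.08. All 3 stood above 2.35, the window's mean level over the 8 libraries, in each library. They were picked by these same values, so this was largely fixed by the choice and is no further support. The lowest bin, chr8:146000001-146364022, is cut short by the chromosome end at 364 kb, and scaled to 500 kb it had a median of 2.13 (range 1.32 to 2.35). The next lowest were chr8:78000001-78500000, with a median of 1.86 and a range of 0.958 to 2.37, and chr8:92500001-93000000, with a median of 1.87 and a range of 1.28 to 2.25. In both, TOP2A etoposide replicate 1 gave the lowest value, from 6 and 8 peaks. In MACS peaks of TOP2A untreated cells the 3 highest bins, in the order given above, had levels of 0.577, 0.839 and 0.734, below the library mean. In SISSRs sites of the same library they had levels of 8.05, 7.68 and 9.66, above the 5.09 of the whole window, so the rank of these bins in that library depended on the caller.

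**Figure D1:**
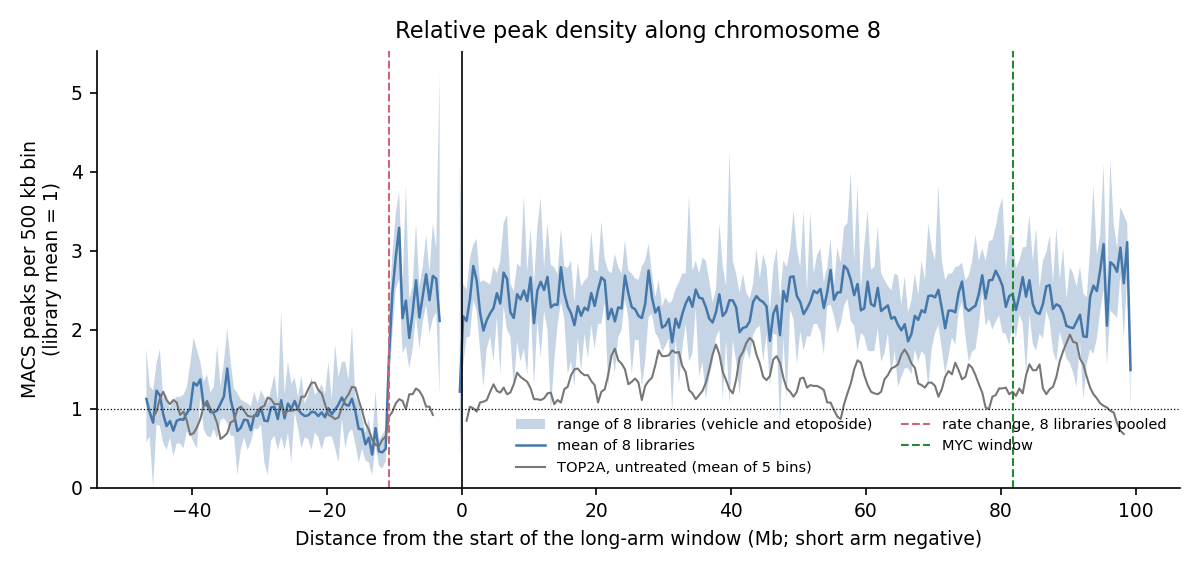
MACS peaks per 500 kb bin of chromosome 8 relative to each library's mean bin (vertical axis, 1 is the library mean) against distance from the start of the long-arm window in Mb (horizontal axis, short arm negative), as the mean and range over the etoposide experiment's 8 libraries and as a 5-bin running mean of the TOP2A untreated library. The mean of the 8 libraries rises on the short arm at the dashed red line. It is 0.421 to 0.756 over the 3 Mb before the line and has a median of 2.43 from there to 43 Mb. Between the windows only 3 bins held a peak in any list, and the bin just before the long-arm window is at 1.22. How much of that bin can hold peaks was not measured. In the window the mean is above 2 in 188 of the 198 whole bins, and the last bin is a partial one.

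The step up did not lie between the windows. Segmentation of the bin profiles, run on the 9 libraries with enough peaks (the 8 and TOP2A untreated), placed a step up at 36.0 Mb on the short arm in 9 of 9. With bins of 1 Mb, or with the penalty doubled, 8 of 9 kept a step there, and TOP2A untreated had none on the short arm. With bins of 500 kb and the penalty as set, the low stretch before the step began at 31.5 or 32.5 Mb in 8 of the 9, and at 32.0 Mb in TOP2A etoposide replicate 2. Over that stretch the level was 0.497 in TOP2A vehicle replicate 1 and 0.584 in replicate 2. It was 0.486 and 0.569 in TOP2B vehicle. With etoposide it was 0.479 and 0.617 for TOP2A and 0.594 and 0.536 for TOP2B. Just before that stretch the level was 0.934 to 1.18 in the 8 libraries. Peak density therefore fell from near the library mean and then rose. The groups overlapped in the level of the low stretch. In MACS peaks of TOP2A untreated cells the low stretch was at 0.532 and the segment after 36.0 Mb was at 1.03, close to the library mean, with a further rise to 1.38 from 50.5 Mb. In SISSRs sites of that library the level went from 0.399 to 5.12 at 36.0 Mb, so the size of its step depended on the caller.

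A finer position came from the most likely single change of rate in the peak midpoints between 33 and 38 Mb. For the vehicle libraries it was chr8:36295926 and chr8:36206711 with TOP2A, and chr8:36108654 and chr8:36093442 with TOP2B. For the etoposide libraries it was chr8:36240268 and chr8:36256772 with TOP2A, and chr8:36223498 and chr8:36326803 with TOP2B. The 8 positions fell between 36.09 and 36.33 Mb with a median of 36.23 Mb and an SD of 82.4 kb. Peak density changed 4.22-fold to 7.80-fold across them. The 8 libraries pooled gave chr8:36225783, with a 4.85-fold change, and SISSRs sites pooled gave chr8:36225791. In TOP2A untreated the position was chr8:36103559 with a 2.16-fold change in MACS peaks, and chr8:36259191 with a 14.9-fold change in SISSRs sites. These values describe a position chosen as the best in the search range, and no gene was placed there, because the annotation at hand is of another build.

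**Figure D2:**
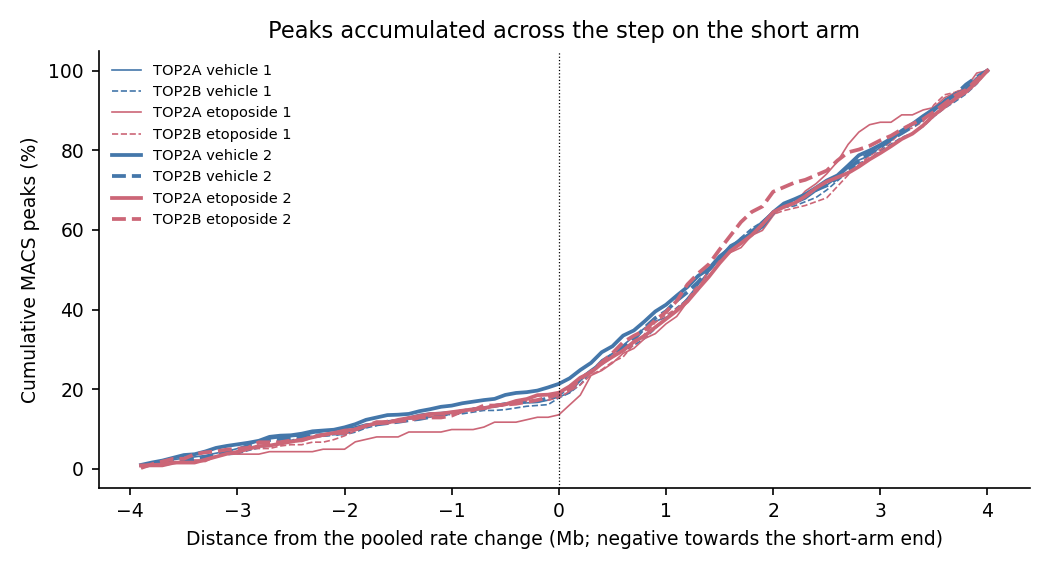
Cumulative percentage of the MACS peaks within 4 Mb of the pooled rate change (vertical axis) against distance from it in Mb (horizontal axis), 1 line per library of the etoposide experiment, blue for vehicle and red for etoposide, solid for TOP2A and dashed for TOP2B, thick for replicate 2. All 8 lines steepen close to 0, where the pooled density changed 4.85-fold.

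The short arm thus consisted of unlike parts. From its end to the pooled position the level was 0.935 ± 0.0346 (SD, n = 8), and from there to 43 Mb it was 2.48 ± 0.133. The long-arm window stood at 2.52 ± 0.0971 times the outer part and at 0.949 ± 0.0456 times the inner part. The ratio of 1.99 to the whole short-arm window mixes these parts. At the edges the density was raised on both sides of the centromere, and lower on the long-arm side: the last 1 Mb of the short-arm window had a level of 2.53 ± 0.165 (SD, n = 8), and the first 1 Mb of the long-arm window had 2.14 ± 0.180, the lower of the pair in 7 of 8 libraries. In the vehicle libraries of replicate 2, segmentation set the stretch from 43 to 48 Mb apart, at 1.64 for TOP2A and 1.74 for TOP2B. Only 5 bins of that stretch held a peak in any list, and how much of each can hold peaks was not measured. The level of the stretch and the steps that bound it were not corrected for this. Within the inner part, a best-fitting low stretch began between 38.21 and 38.29 Mb in 7 of the 8 libraries, at chr8:38246044 in TOP2A vehicle replicate 1 and at chr8:38285684 in replicate 2, with densities inside it of 0.265 to 0.610 times those around it. Its far end varied from 38527589 to 39756650, and TOP2A etoposide replicate 1, with 4 peaks inside, placed it elsewhere, from 39089931. Inside the long-arm window the most libraries that shared a step up within 1 Mb was 2 of 9, both vehicle libraries of replicate 2, at 48.0 Mb. This number depended on the settings. With the penalty halved 5 of 9 shared a step at 48.0 to 48.5 Mb, both TOP2A libraries of replicate 2, both TOP2B libraries of replicate 2 and TOP2A vehicle replicate 1. With bins of 1 Mb 5 of 9 shared one at 49 to 51 Mb.

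**Figure D3:**
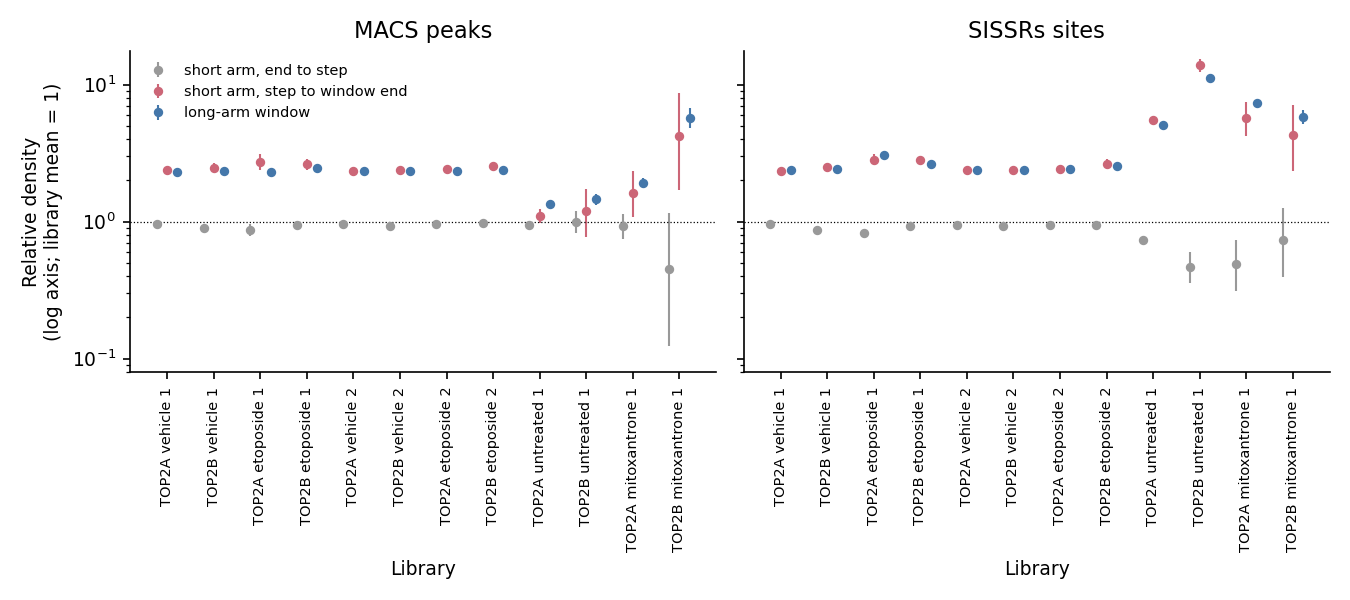
Relative density on a log axis (1 is the library mean) for the outer short arm, the short arm from the pooled rate change to 43 Mb and the long-arm window, in each of the 12 libraries, for MACS peaks (left) and SISSRs sites (right); bars are 95% exact Poisson intervals. In the 8 libraries of the etoposide experiment the inner short arm and the long arm lie close together, above 2, and the outer short arm lies below 1.

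Whether the drug or the enzyme changed the level of the long-arm window was tested over libraries. With vehicle the level was 2.33 ± 0.0218 (SD, n = 4) and with etoposide 2.37 ± 0.0580 (n = 4). The log2 difference was 0.02, and a two-sided exact permutation test of 4 against 4 libraries gave p = 0.286. Leaving out single libraries gave 0.0073 (without TOP2B etoposide replicate 1) to 0.035 (without TOP2A etoposide replicate 1), with p from 0.0857 to 0.543 (exact permutation test). Each drug arm of 4 libraries holds 2 chromatin preparations, and a test over those, 2 against 2, could not go below p = 0.333 (exact). Differences between libraries of the same antibody and replicate number ran from 0.00 to 0.07, all 4 upward, with the value of 0.07 from TOP2B replicate 1. With TOP2A the level was 2.32 ± 0.0169 (n = 4) and with TOP2B 2.38 ± 0.0488 (n = 4), a log2 difference of 0.03 with p = 0.0571 by the exact permutation test, where the smallest possible value is 0.0286. TOP2B was higher in all 4 comparisons of the same drug and replicate number, by 0.02 to 0.08 on the log2 scale. With the median bin in place of the mean the difference was 0.04 and reached p = 0.0286 (exact permutation test). It turned to -0.02 with SISSRs sites (p = 0.971, exact permutation test). Leaving out single libraries gave 0.021 to 0.043, with p from 0.0286 (without TOP2B vehicle replicate 1) to 0.114 (exact permutation test); the value of 0.021 was without TOP2B etoposide replicate 1. Without both etoposide libraries of replicate 1 it was 0.019 (p = 0.2, exact permutation test). In SISSRs sites the level was 2.39 ± 0.0318 with vehicle and 2.67 ± 0.288 with etoposide (n = 4 each, p = 0.0571, exact permutation test), where TOP2A etoposide replicate 1 alone reached 3.07.

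Single bins of the window were tested in the same way with limma on log2 peaks per bin, fitted over all 5733 bins that passed a filter of 5 peaks on average. Etoposide against vehicle gave 0 bins at an adjusted p of 0.05 (0% of all bins), and at an unadjusted p under 0.05 it gave 14 of the 199 bins of the window against 275 genome-wide (4.80%). TOP2B against TOP2A gave 0 bins at an adjusted p of 0.05 (0%), and 6 of 199 at an unadjusted p under 0.05 against 200 genome-wide (3.49%). The median log2 difference over the bins of the window was 0.02 for etoposide and 0.03 for TOP2B, beside 0.01 and 0.00 over all bins. On simulated data, with an assumed spread and changed bins drawn from the whole genome, limma called 60% of 100 bins changed 2-fold between the drugs. It called 5% of 100 bins changed 1.5-fold, so such changes in a bin drawn from the whole genome would mostly have been missed. Bins of the window held more peaks, 86.2 on average against 35.5 on other chromosomes in TOP2A vehicle replicate 1. The share that would be missed among them was not tested. With a pseudocount of 2 peaks the median over all bins moved to 0.12 in the drug comparison, and 0 bins were called there too.

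Width changed the level. Peaks wider than the median width of their list had a level of 2.59 ± 0.145 (SD, n = 8) in the long-arm window, against 2.27 ± 0.0776 for peaks at the smallest width. The log2 difference was 0.19 ± 0.11, higher in 7 of 8 libraries, and an exact sign-flip permutation test gave p = 0.0156. The library that was not higher was TOP2B etoposide replicate 1, at 0.00. Relative to the short-arm window of the same class the difference was 0.11 ± 0.07, higher in 8 of 8 libraries (p = 0.00781, exact sign-flip permutation test). The widest quartile of the wider peaks had a level of 3.15 ± 0.458 and lay above the smallest-width peaks in 8 of 8 libraries, by 0.46 ± 0.23 on the log2 scale (p = 0.00781, exact sign-flip permutation test, the smallest possible with 8 values). Because both antibodies share chromatin, the test was repeated on their means, where 4 values allow no p under 0.125, and the difference of 0.19 then gave p = 0.125 (exact).

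Score, the authors' measure of how strongly a peak stands out, went the other way relative to the library mean. Relative to the short arm no score difference passed the test. The lowest quartile of scores in each list had a level of 2.62 ± 0.270 (SD, n = 8), the second 2.51 ± 0.179, the third 2.15 ± 0.116 and the highest 2.12 ± 0.25. The highest quartile was below the lowest by 0.31 ± 0.28 on the log2 scale, in 6 of 8 libraries (p = 0.0313, exact sign-flip permutation test). The other 2 were the etoposide libraries of replicate 1, at 0.08 for TOP2A and 0.09 for TOP2B. Without them the difference was -0.44, in 6 of 6 libraries. The p of 0.0313 (exact sign-flip permutation test) was then the smallest possible with 6 values. Because the 2 libraries left out were the only ones not lower, this outcome was fixed by their removal and is no further support. From all 8 libraries, leaving out any single one of the 6 lower ones gave p = 0.0625 (exact), with differences from -0.32 to -0.25. Relative to the short-arm window of the same class the difference was -0.03 (p = 0.711, exact), and relative to the short arm up to the step it was -0.17 (p = 0.289, exact). On the means of both antibodies the difference of -0.31 gave p = 0.25 (exact sign-flip permutation test), with 3 values lower and 1 higher. The smallest possible p with 4 values is 0.125. The level was above 1.9 in every score quartile of every one of the 8 libraries, down to 1.92.

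**Figure D4:**
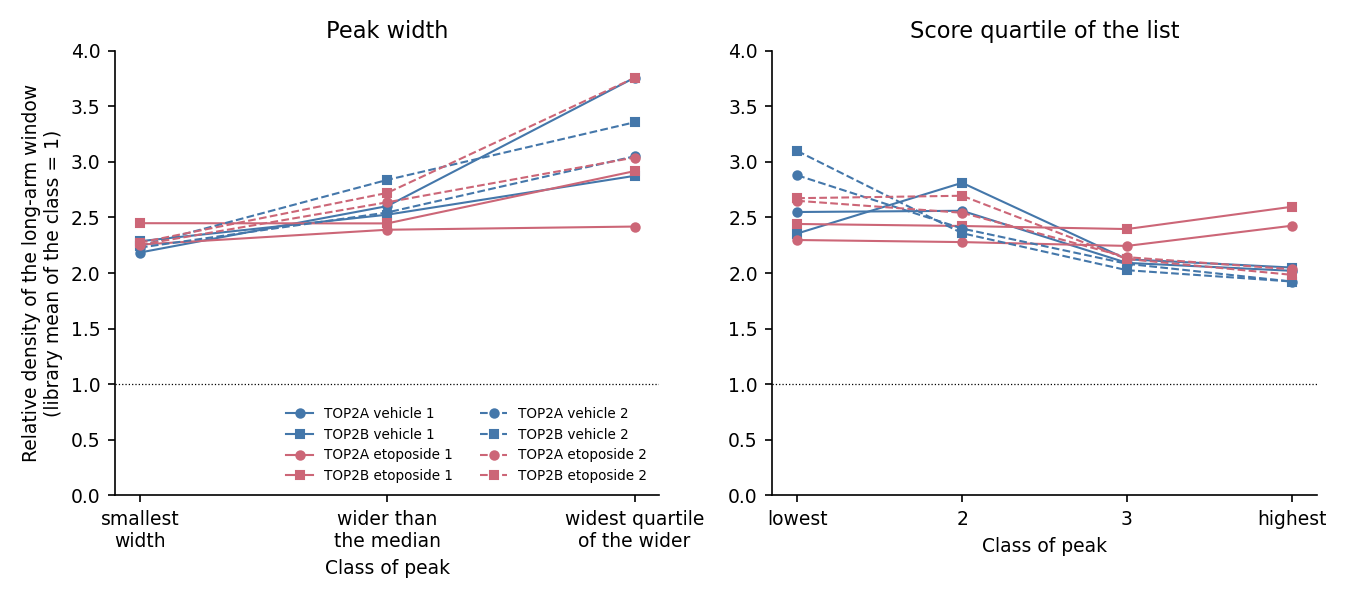
Level of the long-arm window (vertical axis, 1 is the library's mean bin for that class of peak) by peak width (left) and by score quartile of the list (right) in the 8 libraries of the etoposide experiment, blue for vehicle and red for etoposide, circles for TOP2A and squares for TOP2B, solid for replicate 1 and dashed for replicate 2. The widest peaks reach 3.76, and 6 libraries, all but the etoposide libraries of replicate 1, are lower in the highest than in the lowest score quartile.

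Peaks of the long-arm window were also compared directly with peaks of chromosomes other than 8. The share at the smallest width and the median score restate the width and score results above on the same peaks and are no further evidence of them. The share at the smallest width was 67.4% in TOP2A vehicle replicate 1 and 67.1% in replicate 2, against 71.5% and 70.3% on other chromosomes. Over the 8 libraries the difference was -2.71 ± 1.45 percentage points, lower in 7 of 8 (adjusted p = 0.0469 over 6 properties, exact sign-flip permutation test), with TOP2B etoposide replicate 1 again the exception. Against the short-arm window it was -1.47 ± 1.01 points. The fold over background of SISSRs sites had medians of 36.8 to 115 in the window and 61.4 to 145 elsewhere. It was lower in the window in 8 of 8 libraries, by 0.39 ± 0.27 on the log2 scale (adjusted p = 0.0469, exact sign-flip permutation test). It was largest in the etoposide libraries of replicate 1, at -0.74 for TOP2A and -0.87 for TOP2B, and without them it was -0.25, lower in 6 of 6, with an adjusted p of 0.0625 (exact). Leaving out single libraries raised the adjusted p of both properties to 0.0938 at most (exact), with -3.10 to -2.49 points for the share and -0.42 to -0.32 for the fold. For the fold the unadjusted p was each time the smallest possible, 0.0156 with 7 values and 0.0313 with 6 (exact sign-flip permutation test). Its higher adjusted p therefore cannot be read as a weaker difference. The median MACS score was lower by 0.16 ± 0.12, in 6 of 8 libraries (adjusted p = 0.0625, exact sign-flip permutation test). The tags per SISSRs site, with a log2 difference of 0.00 ± 0.13, and the share of MACS peaks that held a SISSRs site, with a difference of 0.06 ± 0.60 points, did not pass the test (adjusted p = 1.0 for both, exact). The median width was the smallest width in both sets of peaks in all 8 libraries.

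The region around MYC was not set apart within the long arm at this depth. The window chr8:128700000-128800000 held 11 and 23 peaks in the TOP2A vehicle libraries of replicates 1 and 2, which are levels of 1.47 and 2.67. It held 6 and 26 in the TOP2B vehicle libraries, at levels of 1.5 and 2.53. The TOP2A etoposide libraries had 3 and 8 peaks, at 2.40 and 1.19. The TOP2B etoposide libraries had 8 and 9, at 3.29 and 2.52. Vehicle and etoposide overlapped, and each of 3 groups held 1 replicate above and 1 below the rest of the arm, while both TOP2B etoposide libraries were above it. Against the rest of the long-arm window the log2 difference was -0.17 ± 0.48 (SD, n = 8), higher in 5 and lower in 3 (p = 0.367, exact sign-flip permutation test). The interval of a single library spanned more than that difference: 0.734 to 2.63 in TOP2A vehicle replicate 1 and 1.65 to 3.71 in TOP2B vehicle replicate 2. Over 1 Mb centred on MYC, with 31 to 244 peaks a library, the difference was 0.03 ± 0.09 (p = 0.383, exact). The 500 kb bin that contains the window ranked from 12 in TOP2B etoposide replicate 1 to 158 in TOP2B vehicle replicate 2 among the 199 bins of the arm.

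Individual peaks near MYC seldom recurred, and the same held over the whole long-arm window. The 99 peaks of the MYC window merged into 80 regions, of which 4 had a peak in 3 or more libraries. Of the 91022 merged regions of the long-arm window, 2.33% had peaks in 3 libraries, 0.575% in 4 and 0.147% in 5. The low recurrence was therefore not particular to MYC. The region chr8:128773564-128773828 had one in both TOP2A vehicle libraries, TOP2B vehicle replicate 2 and TOP2B etoposide replicate 2. The neighbouring region chr8:128773872-128774187 had one in both TOP2A etoposide libraries, TOP2A vehicle replicate 2 and TOP2B etoposide replicate 1. The other two, chr8:128748284-128748762 and chr8:128763115-128763590, had peaks in 3 libraries each. These 4 were singled out after their values were seen. Among the mitoxantrone experiment's libraries, the MYC window held 5 peaks in TOP2A untreated cells and 0 in each of the other 3 libraries, where 0.141 to 0.507 peaks would lie at the density of the rest of the arm, so an absence was not detectable there.

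**Figure D5:**
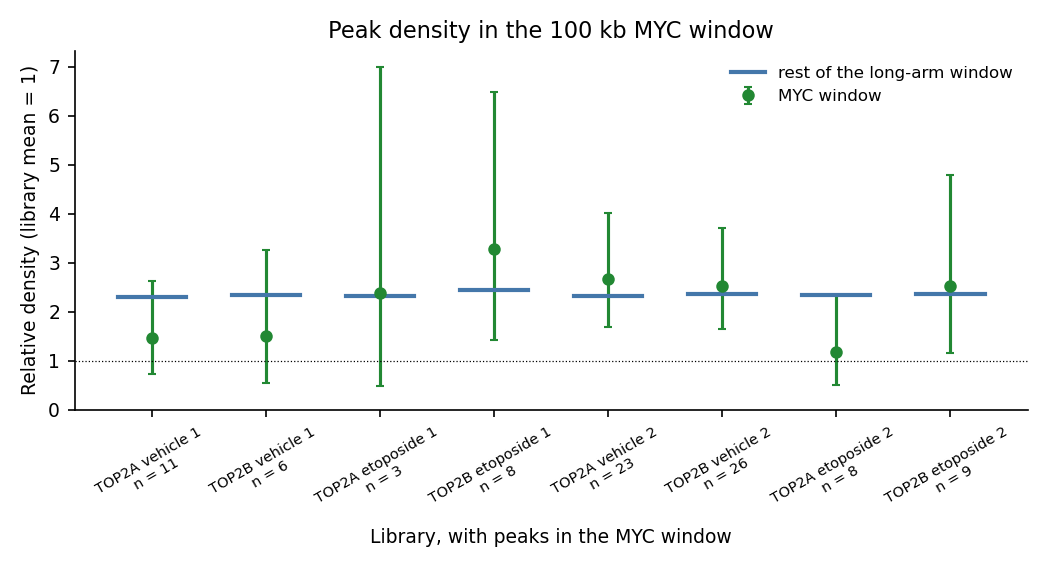
Level of MACS peaks in the 100 kb MYC window (points, with 95% exact Poisson intervals) and in the rest of the long-arm window (bars) per library of the etoposide experiment, relative to the library mean of 1, with the number of peaks under each name. The points scatter on both sides of the bars, from 1.19 to 3.29, and the intervals are wide.

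Few peaks of the long arm were shared between libraries, and between replicates still fewer were shared on other chromosomes, as given below. All MACS peaks of the window merged into 91022 regions, of which 76832 (84.4%) came from 1 library, 188 had peaks in at least 5 of the 12 and 15 had peaks in 7, the most seen. Regions were merged in the window only, so no share over the genome stands beside these counts. By number of libraries and then by the lowest score rank, the leading regions were chr8:58681688-58686242, chr8:144988141-144996489, chr8:108785796-108788937, chr8:100947444-100949076 and chr8:87305769-87310612. Each held peaks from 5 or 6 of the etoposide experiment's libraries and from 1 or 2 libraries of the mitoxantrone experiment, and the merging joins any peaks that a wide peak spans. Among the 15, chr8:86559779-86562370 was the only region made by the etoposide experiment alone, with 7 of its 8 libraries, and was named after its values were seen.

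Overlap between replicates was low and higher in the window than elsewhere. Of the TOP2A vehicle peaks in the window, 5.79% of replicate 1 and 4.99% of replicate 2 overlapped the other list by at least 1 bp, against 2.64% and 2.29% on other chromosomes. For TOP2B vehicle the shares were 7.15% and 2.76%, against 3.08% and 1.2%. For TOP2A etoposide they were 4.41% and 0.810%, against 1.98% and 0.367%. For TOP2B etoposide they were 2.11% and 1.5%, against 0.939% and 0.635%. As a share of the shorter list, overlap was 2.19 to 2.32 times as frequent in the window as on other chromosomes, while the longer list was 2.45 to 2.51 times as dense there. The higher overlap therefore did not exceed the higher density. How much overlap random placement of these peaks would give was not computed. These shares and the shared regions named above are therefore not evidence of reproducible sites. Across the 199 bins of the window the replicates of a group correlated with Pearson's r from 0.136 to 0.424, and the 28 pairs of libraries in the etoposide experiment had a median of 0.271. A given bin has the same mappable length and base composition in every library, and their part in these correlations was not tested.

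The mitoxantrone experiment had 1 library per group, and its values have no replicate check. The level of the long-arm window was 1.34 in TOP2A untreated cells (95% exact Poisson interval 1.31 to 1.38) and 1.91 (1.75 to 2.09) in TOP2A mitoxantrone. It was 1.46 (1.33 to 1.60) in TOP2B untreated cells and 5.75 (4.84 to 6.79) in TOP2B mitoxantrone, where it rests on 140 of 702 peaks. For both antibodies the library with mitoxantrone was the higher, and it was also the one with fewer and wider peaks. In SISSRs sites that order held for TOP2A, at 5.09 without and 7.28 with mitoxantrone, and was the opposite for TOP2B, at 11.1 and 5.80. The direction of the TOP2B comparison thus depended on the caller.

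In these 4 libraries the level differed widely between classes of peak width and of score. The widest quartile of the wider peaks had levels of 5.26 in TOP2A untreated, 7.49 in TOP2B untreated, 12 in TOP2A mitoxantrone and 24.6 in TOP2B mitoxantrone. Peaks at or below the median width had levels of 0.690, 0.339, 0.0984 and 0.246 in the same order, all under the library mean. Peaks with a score of at least 100 had levels of 0.837 in TOP2A untreated, 2.17 in TOP2B untreated, 2.69 in TOP2A mitoxantrone and 18.3 in TOP2B mitoxantrone, from 585, 10, 11 and 7 peaks. In TOP2A untreated they thus lay below the library mean, and below the 1.34 of all its peaks. Median widths in the window were 661, 733, 1062 and 2716.5 bp, against 487, 458, 541 and 1017 bp on chromosomes other than 8. A SISSRs site lay in 95.3% of the window's MACS peaks in TOP2A untreated and in 84.0% in TOP2B untreated, against 62.1% and 29.8% elsewhere. With mitoxantrone the shares were 29.0% against 23.5% for TOP2A and 12.1% against 13.1% for TOP2B. Between the experiments, MACS peaks in the 199 bins of the window correlated with r from -0.397 to 0.0418. The median was -0.20 in the 32 pairs of libraries. For the untreated libraries the sign depended on the caller. With MACS peaks of 1 library set against SISSRs sites of the other, their r with the etoposide experiment's libraries ran from 0.0681 to 0.542. For the libraries with mitoxantrone it was at most -0.0142. Apart from TOP2A untreated, these lists held 0.704 to 2.53 MACS peaks per bin of the window.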

How the data were processed

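A MACS list and a SISSRs list were used per library. MACS peaks carry a score, computed by the authors and never under 50. Each deposited SISSRs site carries a tag count, a p-value and a fold over background, all computed by the authors before deposit; these columns were identified from their values, since the lists have no header. Per the submitters' processing notes, Bowtie2 2.2.5, MACS 1.4, bedtools 2.26.0 and hg19 were used. Lists were called per library, as deposited. The sources used here do not give the caller settings, the role of input or the read depth. Peaks were counted by midpoint in 500 kb bins of chromosomes 1 to 22 and X. Levels were compared as log2 values with two-sided exact permutation tests. Replicate numbers pair the antibodies within a drug through shared chromatin, per the labels. Bins were tested with limma 3.58.1 (R 4.3.3) on log2 of peaks plus a pseudocount of 0.5, scaled by list, with Benjamini-Hochberg adjustment. Profiles were segmented by penalised least squares, which found 179 of 180 simulated steps, each from a level of 1 to 2.35. Smaller steps and low stretches were not simulated, so this rate does not cover them. Versions were Python 3.11.15, pandas 2.3.3, numpy 2.4.6, matplotlib 3.10.9 and scipy 1.17.1. Regions named were the 3 highest and 3 lowest bins, at most 5 merged regions with peaks in 5 or more libraries, and MYC. The members, lists and tests were chosen with earlier results of these data known.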

Additional observations from a re-analysis of the deposited data

Results flagged for a closer look

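The level of the long-arm window in SISSRs sites was 3.07 in TOP2A etoposide replicate 1, far from the 2.36 to 2.40 of the other TOP2A libraries: its gap to the nearest was 0.943 of the range of the group, above the 95% limit for 4 libraries. In MACS peaks the same library was at 2.31, inside the range of the others. Its part in the difference between vehicle and etoposide in SISSRs sites was not tested. Of 20 groups of 4 libraries examined in this way, 1 stood out, and chance marks about 1 in 20.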

How the results depend on the processing

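Over 233 recomputed values, 161 kept their direction and their side of the threshold (or stayed within the spread), 29 moved, 28 lost the call, 2 gained it and 13 turned in sign. The level of the long-arm window, 2.35, became 2.53 with SISSRs sites, 2.41 with bases covered, 2.43 against the median bin, 2.48 with chromosome 8 left out of the mean and 1.99 against the short-arm window, and it stayed between 2.34 and 2.36 without any single library. Chosen after seeing the data were the short arm up to the step as reference (2.52), peaks wider than the list median (2.59), single peak positions for the step and leaving out both etoposide libraries of replicate 1. The drug difference turned to -0.018 with bases covered, -0.0087 against the short-arm window and -0.045 with wider peaks. The TOP2B difference turned to -0.021 with SISSRs sites and passed the threshold with the median bin (0.040).

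On the means of both antibodies, where 4 values cannot pass, the width difference was 0.19, the score difference -0.31, the share at the smallest width -2.71 points and the SISSRs fold -0.39. For the score difference the p there was 0.25 (exact sign-flip permutation test), above the smallest possible 0.125. The score difference was -0.028 against the short-arm window and -0.17 against the short arm up to the step. Leaving out single libraries, or both etoposide libraries of replicate 1, gave 0.0187 to 0.043 for the TOP2B difference, -0.44 to -0.25 for the score difference, -3.35 to -2.49 points for the share at the smallest width, -0.42 to -0.25 for the SISSRs fold, -0.010 to 0.064 for the tags per site and -0.068 to 0.20 points for the share of peaks with a SISSRs site. The MYC difference turned to 0.031 over 1 Mb. The step moved to 36.25 Mb with bins of 250 kb. Against the short-arm window the width difference was 0.11. In the mitoxantrone experiment's 4 libraries, 21 of 35 recomputed levels moved beyond their counting interval. For the values that moved or lost the call, the cause was not tested.

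Per the labels, a replicate number pairs the TOP2A and TOP2B libraries of 1 drug, which share chromatin; the labels state no pairing between vehicle and etoposide. The replicate differences of the groups correlated at -0.0971 to 0.0736 over 5733 bins. With the replicate block the drug difference was 0.02 and the TOP2B difference 0.03 (p = 0.125 each, exact sign-flip, 4 pairs), and limma called 0 bins in both comparisons, as under every other setting run. Read depth was not known, and lists of 702 to 9290 peaks left under 3 peaks per bin of the window.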

Other observations

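Chromosome X, present in the same 8 libraries at levels of 0.496 to 0.517, offers values from another chromosome whose density is far from the mean. Its median SISSRs fold was higher than that of the autosomes other than 8 in 6 of 8 libraries and lower in 2, while the long-arm window was lower in 8 of 8. Its median MACS score was higher in 5 libraries and lower in 0, with 3 equal, while the window was lower in 6 and higher in 1. The share of peaks at the smallest width was higher on chromosome X in 5 and lower in 3, and lower in the window in 8 of 8. No test was run on these counts.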
